A study of Mus musculus with 29 samples.

Results

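The 14 retina pools taken from embryos at E18.5 carried very different amounts of skeletal muscle RNA, and they fell into 6 pools with much of it and 8 pools with little. They are 14 of the 29 arrays of a mouse retina series, of which the other 15 were taken after birth, at P30.5. A muscle score was given to each E18.5 array, namely the mean log2 MAS5 signal of Ckm, Tnnt3, Myl1, Tnni2 and Neb, and the sides were chosen by this score, with the 6 highest arrays as the high side and the other 8 as the low side. The embryos came from AKR/J, RD7, NOD.NON-H2-nb1, CAST/EiJ and C57BL6/J mice. RD7 mice carry the rd7 mutation of the nuclear receptor gene Nr2e3, and the labels name no treatment. Every pool held equal amounts of RNA from 10 retinas, drawn from 15 mice a strain, so a pool is not an animal. AKR/J had 2 pools at E18.5 and every other group had 3. Whole eyes were removed and the retinas were dissected under a stereo microscope.

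A dissected embryonic retina should hold no skeletal muscle. Outside the eye wall lie the extraocular muscles, the loose and fibrous connective tissue of the orbit, blood vessels, and the epithelium of the cornea, conjunctiva and lids, while the lens and the pigment epithelium lie against the retina itself. Muscle fibres of the fetus are built with embryonic and perinatal myosins, which adult fast or slow myosins later replace. The muscles that move the eye descend from head mesoderm and attach to the sclera, close to where the eye is cut free.

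The score separated the sides by a wide gap. On the high side it was 11.18 in both AKR/J pools, 10.87 in RD7 replicate 2, 10.36 in CAST/EiJ replicate 1, 10.11 in RD7 replicate 3 and 10.07 in NOD.NON-H2-nb1 replicate 1. On the low side it was 7.18 in NOD.NON-H2-nb1 replicate 3, 6.54 and 6.45 in CAST/EiJ replicates 3 and 2, and 5.14 in RD7 replicate 1. The remaining 4 low pools were C57BL6/J replicate 1 at 4.33, NOD.NON-H2-nb1 replicate 2 at 4.14, and C57BL6/J replicates 3 and 2 at 3.97 and 3.60. The last high pool and the first low pool were therefore 2.89 log2 units apart. All AKR/J pools were high and all C57BL6/J pools were low, whereas RD7, NOD.NON-H2-nb1 and CAST/EiJ had pools on both sides.

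**Figure D1:**
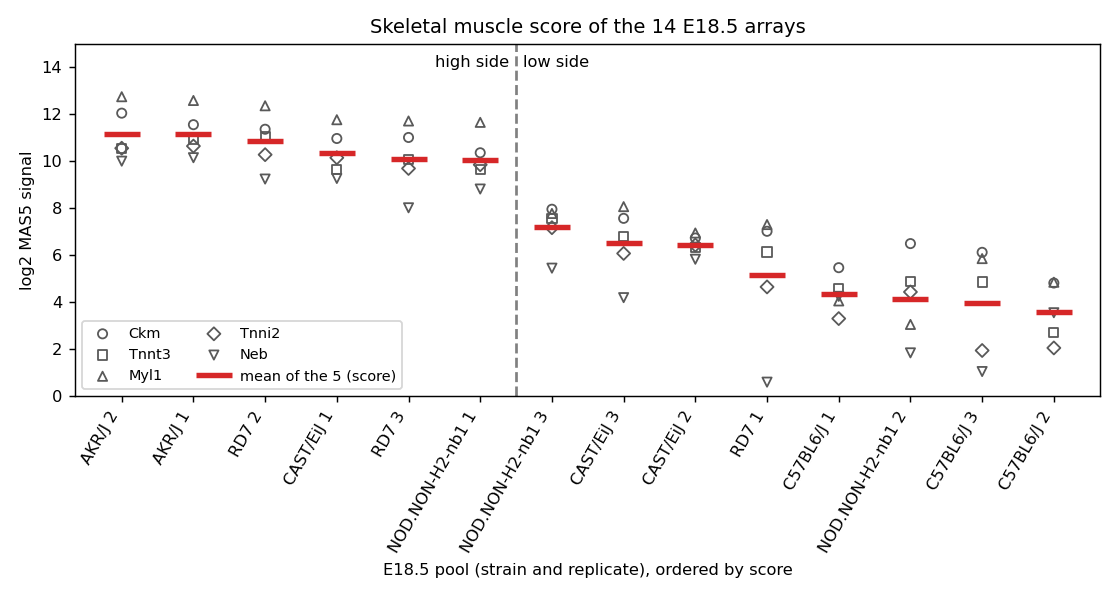
Log2 MAS5 signal of the 5 score genes (open symbols) and their mean (red bars) in each E18.5 pool, ordered by score. The 6 pools left of the dashed line score 10.07 to 11.18 and the 8 pools right of it 3.60 to 7.18.

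The sides were set from these arrays themselves, so nothing between them was tested, and the differences below describe 14 arrays. The values that chose the sides were those of muscle creatine kinase Ckm, fast troponins Tnnt3 and Tnni2, the myosin light chain Myl1 and the giant thin filament protein nebulin, Neb. Myl1 measured 11.66, 12.07 and 12.75 (lowest, median and highest) on the high side, against 3.05, 6.40 and 8.07 on the low side. Ckm measured 10.37, 11.19 and 12.05 on the high side, against 4.82, 6.61 and 7.96 on the low side. For all 5 genes no high pool overlapped a low pool. The labelled tissue was clear on both sides. The mean level of 15 retinal progenitor genes was 11.52 to 11.93 in the high pools and 11.88 to 12.10 in the low pools.

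Differences are given as high minus low in log2 MAS5 signal with their SE, from a fit with strain as a block, so they come only from the 3 strains that have both sides. A gene was counted as higher where this difference was at least 1 log2 unit, which is 2-fold, and all high pools lay above all low pools within each of the 3 strains, and as lower in the mirror case. Only genes with a mean log2 MAS5 of at least 6 over the 14 arrays could be counted. Of 12388 such genes, 426 were higher (3.44%) and 31 were lower (0.25%), or 2.34% and 0.17% of all 18194 genes measured. Without NOD.NON-H2-nb1 replicate 1, a high pool, 667 were higher and 58 lower, and without RD7 replicate 1, a low pool, 63 were lower. Each was its strain's only pool on that side. Leaving it out therefore took the strain out of the no-overlap rule, which then asked for less. The level filter takes in the high pools, so a gene near the floor in the low pools could pass through the high pools alone. With no level filter 708 genes were higher and 232 lower. The median difference over all measured genes was -0.01. Of the 426 higher genes, 250 also had all 6 high pools above all 8 low pools regardless of strain, and over all genes past the level filter 312 (2.52%) did. Only 1 of the 31 lower genes had the mirror pattern, the calcium-dependent membrane binding gene Cpne4, at 8.10 to 8.58 in the high pools and 8.84 to 9.65 in the low pools, and over all genes past the filter 33 (0.266%) had it. Because each array measured bulk RNA, fewer cells of a type and less RNA per cell cannot be told apart in any of these values.

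Muscle genes that the score did not use were higher across nearly every part of the fibre. Over 8 lists of skeletal muscle genes, 41 of 97 measured genes were higher and 1 was lower, against 2.34% and 0.17% of all genes measured. The same shares over all genes apply to the list counts that follow. The median difference of the 8 lists was 1.99, against -0.01 over all genes measured. The median was 2.13 within NOD.NON-H2-nb1, 1.95 within CAST/EiJ and 1.96 within RD7. Their summed signal was 0.38% to 0.684% of all signal on the high side, against 0.087% to 0.241% on the low side. In the P30.5 pools this share was 0.122% to 0.38%. The sum includes Cryab, which the lens makes in bulk, so it is not a measure of muscle RNA alone. The E18.5 values of these genes come from the same arrays that set the sides, so their counts describe the split and support nothing further.

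The fetal contractile genes stood out, with 7 of 8 higher and a median difference of 3.79. Embryonic myosin Myh3 measured 11.51, 12.38 and 13.01 on the high side, against 5.76, 6.66 and 8.55 on the low side, a difference of 4.58 ± 0.61 (SE). Perinatal myosin Myh8 measured 11.23, 11.58 and 12.78 in the high pools and 4.54, 5.95 and 7.46 in the low pools, a difference of 4.92 ± 0.50. No high pool overlapped a low pool for either gene. Cardiac actin Actc1, which fetal skeletal muscle also uses, differed by 4.01 ± 0.64, skeletal actin Acta1 by 3.80 ± 0.47 and slow troponin C Tnnc1 by 3.78 ± 0.35. The exception was Chrng, the fetal acetylcholine receptor subunit, which was lower by the rule at -1.36 ± 0.98. It measured 5.00, 6.66 and 7.55 in the high pools and 2.52, 5.18 and 10.88 in the low pools. The differences within the strains were -0.19 in NOD.NON-H2-nb1, -2.91 in CAST/EiJ and -0.98 in RD7, so the value rests mainly on the low CAST/EiJ pools.

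The adult fast myosins were measured at low levels. Myh1, Myh2 and Myh4 all missed the level filter. Myh2 measured 6.77 to 8.30 in the high pools and 1.10 to 5.51 in the low pools, and Myh4 measured 2.25 to 5.22 in the high pools and 1.94 to 5.13 in the low pools. Of the 10 measured fast contractile genes 7 missed the filter and the other 3 were higher, namely fast troponin C Tnnc2 (4.54 ± 0.71), the fast light chain Mylpf (3.63 ± 0.35) and the tropomyosin Tpm1 (2.10 ± 0.35). Slow contractile genes were higher in 5 of 8 cases, with a list median of 2.92, namely the ventricular light chain Myl2 (2.89 ± 0.48), Myh7, the slow troponins Tnnt1 (4.33 ± 0.91) and Tnni1 (3.07 ± 0.30) and the slow myosin binding protein Mybpc1 (3.36 ± 0.31). Tpm3, a tropomyosin with products in many cell types, was at -0.01 ± 0.11. The slow myosin Myh7 was higher by 1.61 ± 0.53, the smallest difference of the 5 higher genes of this list.

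Genes of the sarcomere scaffold, which anchor and space the filaments, were higher in 11 of 20 cases. Titin, Ttn, measured 10.86, 11.73 and 12.80 in the high pools and 6.67, 7.30 and 7.97 in the low pools, a difference of 3.80 ± 0.35. The M band gene Myom2 differed by 4.97 ± 0.98 and the intermediate filament gene desmin, Des, by 1.83 ± 0.40. Cryab, a small heat shock protein of muscle that the lens makes in bulk, had a difference of -1.53 ± 0.81 and 10.10 to 13.31 in the high pools against 7.21 to 14.35 in the low pools. Of calcium release genes 6 of 15 were higher. They included the ryanodine receptor Ryr1 (4.17 ± 0.99), the calcium store protein Casq2 (3.29 ± 0.30) and the calcium pump Atp2a1 (3.12 ± 0.68). Of energy supply genes 4 of 15 were higher. The list median was 1.12, but 0.49 to 1.46 when 1 pool was left out and 0.18 on RMA values. The 4 were muscle enolase Eno3 (1.21 ± 0.31), muscle glycogen phosphorylase Pygm (1.54 ± 0.96), the cytochrome oxidase subunit Cox6a2 (2.33 ± 0.45) and the ADP-ribosyltransferase Art1 (1.94 ± 0.73), while phosphofructokinase Pfkm, which neurons also use, was at -0.07 ± 0.10.

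Regulators of muscle formation differed as well. Myogenin, Myog, the transcription factor of differentiating myocytes, measured 8.08, 8.89 and 9.76 in the high pools and 1.94, 4.92 and 6.34 in the low pools, with no overlap. Its difference was 2.78 ± 0.68. All 11 measured myogenic regulators and precursor markers had a positive difference, but 7 missed the level filter, and 3 were higher. Beside Myog these were Mef2c, a partner factor of the myogenic regulators (2.93 ± 0.32), and the membrane lectin Chodl (1.25 ± 0.24). Myod1 measured 6.66 to 7.59 in the high pools and 3.56 to 5.95 in the low pools, and the satellite cell factor Pax7 measured 5.34 to 7.46 in the high pools and 2.06 to 4.93 in the low pools. Musculin, Msc, a factor of the head muscle lineage that was named after its values were seen, was higher by 2.11 ± 0.34, with 7.97 to 9.37 in the high pools and 5.54 to 7.13 in the low pools. At the neuromuscular junction the receptor subunits Chrna1 (2.50 ± 0.75) and Chrnb1 (1.13 ± 0.44, or 0.98 on RMA values) were higher, and the list median was 0.26. Rapsn, which clusters these receptors, was at 0.19 ± 0.24. None of 6 heart markers was counted, of which 5 missed the filter, and cardiac alpha myosin Myh6 measured 3.96 to 5.57 in the high pools against 1.88 to 5.62 in the low pools.

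Myogenic factors bind E boxes, and the letters CAGCTG are the form that Myod1 and Myog favour. Since the muscle genes moved together, their promoters were searched for these letters, which read the same on both strands, over the 250 bases before each RefSeq start site (GRCm38.p6). They occurred in 33 of 71 muscle genes with a promoter (46.5%), score genes included, against 3979 of 27025 genes in all (14.7%). The share was 15.9% of 44 genes of the retinal lists, 28.6% of 14 matrix genes and 30.8% of 13 lens genes. Below are the windows of 4 muscle genes with a match, written 5′ to 3′ along the gene with the matched letters in capitals. They were chosen to show the letters far from the start site in Ckm and Acta1 and close to it in Chrna1 and Mylpf. The windows are chr7:19410844-19411093 on the plus strand for Ckm, chr8:123894776-123895025 on the minus strand for Acta1, chr2:73580339-73580588 on the minus strand for Chrna1 and chr7:127211358-127211607 on the plus strand for Mylpf.
Ckm: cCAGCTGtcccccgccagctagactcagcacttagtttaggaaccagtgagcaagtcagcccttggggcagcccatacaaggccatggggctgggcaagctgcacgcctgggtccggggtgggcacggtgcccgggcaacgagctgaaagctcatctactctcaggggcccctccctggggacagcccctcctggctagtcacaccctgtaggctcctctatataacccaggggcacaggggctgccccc
Acta1: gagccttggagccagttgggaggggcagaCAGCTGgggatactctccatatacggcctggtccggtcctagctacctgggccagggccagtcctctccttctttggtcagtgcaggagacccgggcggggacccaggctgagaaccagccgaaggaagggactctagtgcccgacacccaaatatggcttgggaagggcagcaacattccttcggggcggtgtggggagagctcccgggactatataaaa
Chrna1: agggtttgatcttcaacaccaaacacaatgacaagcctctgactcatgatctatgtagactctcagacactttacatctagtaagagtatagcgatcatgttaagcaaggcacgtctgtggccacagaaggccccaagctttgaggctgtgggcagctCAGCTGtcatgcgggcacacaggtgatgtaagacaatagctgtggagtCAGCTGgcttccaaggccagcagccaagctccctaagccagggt
Mylpf: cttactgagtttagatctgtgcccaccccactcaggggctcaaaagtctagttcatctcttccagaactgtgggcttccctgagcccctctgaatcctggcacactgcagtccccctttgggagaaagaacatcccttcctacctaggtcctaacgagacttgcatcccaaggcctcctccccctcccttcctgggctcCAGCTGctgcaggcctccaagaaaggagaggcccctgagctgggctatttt
The match begins at position -249 in Ckm, -221 in Acta1, -92 and -44 in Chrna1 and -51 in Mylpf, counted from the start site. A match describes the letters only. All 4 genes were higher in the high pools, Ckm by 3.71 ± 0.42, Acta1 by 3.80 ± 0.47, Chrna1 by 2.50 ± 0.75 and Mylpf by 3.63 ± 0.35, and Ckm helped set the score.

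Connective tissue moved with muscle in nearly all of its measured genes. Of 25 measured genes of the fibrous matrix, 21 were higher and 0 were lower, and all 25 had a positive difference, with a median of 2.77. Within NOD.NON-H2-nb1 the median was 2.61, within CAST/EiJ 2.89 and within RD7 3.11. Asporin, Aspn, a small leucine-rich proteoglycan of tendon and joint tissue, measured 8.90, 10.34 and 11.32 in the high pools and 2.17, 4.11 and 6.14 in the low pools, a difference of 5.84 ± 0.62. Most of its low pools lay under the level of 6 that the filter asks of the mean, and the difference ran from 4.38 to 6.22 over the alternatives tried. Collagen III, Col3a1, measured 12.73, 14.18 and 14.41 in the high pools and 7.01, 9.24 and 11.99 in the low pools, a difference of 4.21 ± 0.99. Neither gene overlapped between sides. The collagen I gene Col1a1 was higher by 3.89 ± 0.76, the corneal and scleral proteoglycan lumican, Lum, by 3.83 ± 0.77, and dermatopontin, Dpt, by 4.30 ± 0.76. Fibronectin, Fn1, was higher by 1.12 ± 0.25 on a high base, with 12.07 to 12.98 in the high pools and 10.61 to 11.67 in the low pools. Sparc, a matrix protein that the retina also makes, reached only 0.76 ± 0.28 and was not counted. The matrix genes took 0.238% to 0.826% of all signal in the high pools, against 0.0378% to 0.182% in the low pools.

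**Figure D2:**
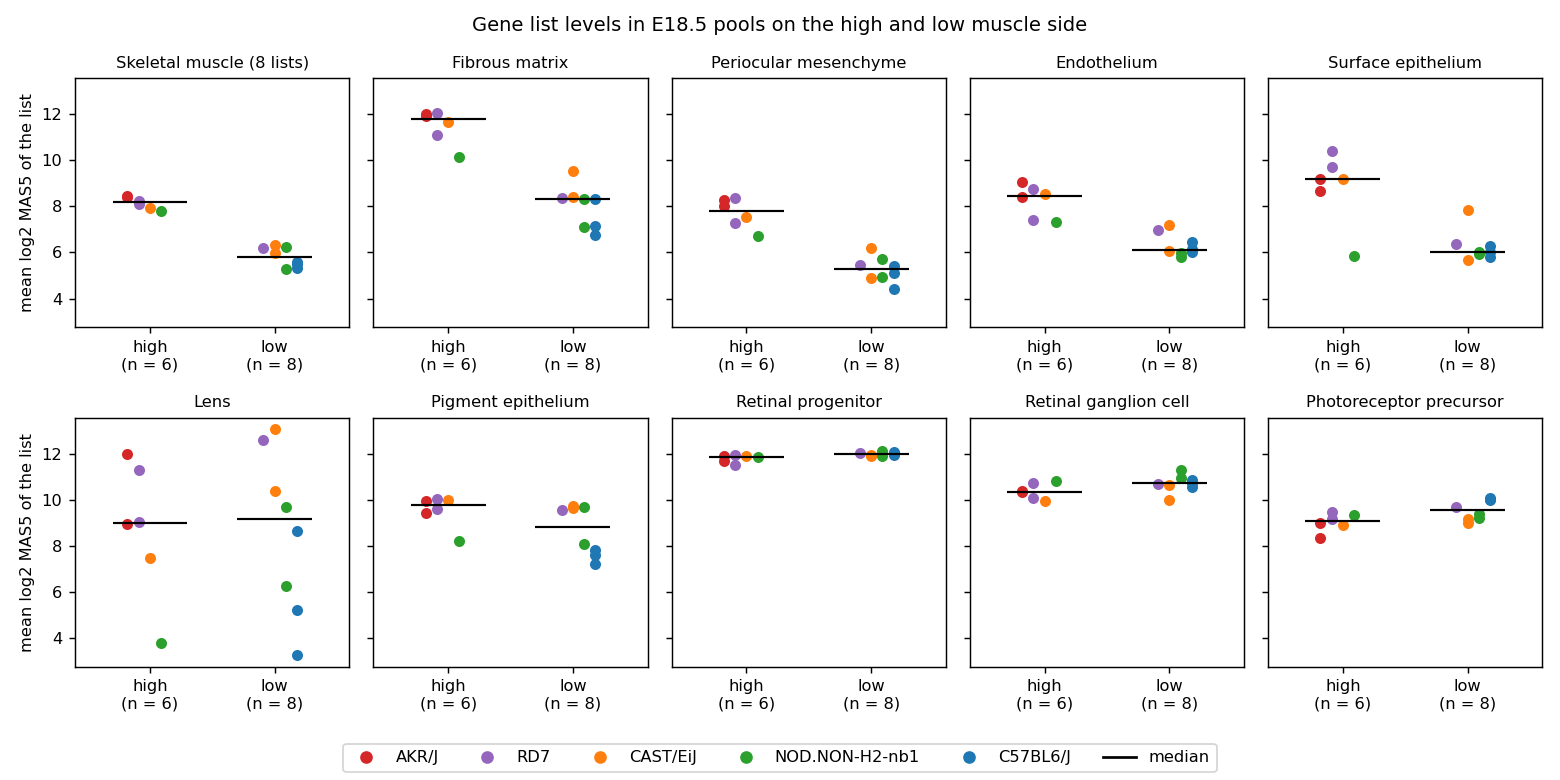
Mean log2 MAS5 signal of 10 gene lists in each E18.5 pool, with the 6 high pools left and the 8 low pools right in every panel, points coloured by strain and bars at the median. Muscle, matrix, periocular and endothelial levels do not overlap between sides, whereas lens, pigment and surface epithelium levels do.

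Some transcription factors of the mesenchyme around the eye were also higher. This tissue descends from neural crest and head mesoderm and forms sclera, corneal stroma and the connective sheath of the eye muscles. The list had 4 of 21 measured genes higher and 0 lower, 13 of the 21 missed the level filter, and 18 had a positive difference. Its mean level was 6.73 to 8.36 in the high pools and 4.42 to 6.20 in the low pools. Tbx15, a mesenchymal T-box factor, measured 8.58, 9.13 and 9.75 in the high pools and 4.04, 5.37 and 6.63 in the low pools, a difference of 3.61 ± 0.55. Prrx1 was higher by 2.57 ± 0.62, or 0.95 as the median over probe sets, and Foxc1, a factor needed for the front of the eye, by 1.65 ± 0.45. Snai2, of migrating mesenchyme, was higher by 1.68 ± 0.42. A pair of the list's genes with roles inside the retina were not counted, namely Tfap2b of amacrine cells at 0.10 ± 0.30 and Foxd1 of the temporal retina at -0.92 ± 0.44. Of 7 tendon genes 2 were higher. Tenomodulin, Tnmd, differed by 4.54 ± 0.74 and keratocan, Kera, also a corneal stroma gene, by 4.92 ± 1.30, while the tendon factor Scx was at 0.12 ± 0.30. Cartilage and bone genes gave 1 of 13 higher, Col11a1 at 1.45 ± 0.34. Col2a1 and Col9a1, which the embryonic eye itself makes, were at 0.00 ± 0.33 and -0.17 ± 0.23.

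Vessel genes differed among themselves. Among 15 endothelial genes, 7 were higher and 0 lower, with a median of 1.55. Plvap, which marks fenestrated vessels such as those of the choroid, measured 7.74, 9.42 and 9.53 in the high pools and 4.00, 6.23 and 7.35 in the low pools, a difference of 2.64 ± 0.48. The receptor Tek was higher by 2.14 ± 0.65. The tight junction gene Cldn5, a mark of barrier vessels such as those of brain and retina, was at 0.25 ± 0.21, and the receptor gene Kdr, which retinal progenitors also express, at -0.17 ± 0.12. Of 11 smooth muscle and pericyte genes 4 were higher, including Abcc9, a potassium channel subunit of pericytes (2.63 ± 0.37), the pericyte proteoglycan Cspg4 (1.24 ± 0.28) and smoothelin, Smtn (1.09 ± 0.26). Smooth muscle actin Acta2 was higher by 1.64 ± 0.52 at its strongest probe set but had a difference of -0.28 as the median over its probe sets. Of 12 macrophage and microglia genes 2 were higher, Mrc1, a marker of tissue macrophages (1.97 ± 0.74), and lysozyme, Lyz2 (1.54 ± 0.30), while Csf1r, which microglia share, was at 0.29 ± 0.28. Peripheral glia gave 1 of 8, the neuregulin receptor Erbb3 (1.78 ± 0.48), and adipocyte genes 1 of 9, carbonic anhydrase Car3 (1.86 ± 0.36), which muscle also makes. Each was under 1 log2 unit in 1 alternative, Erbb3 at 0.63 as the median over probe sets and Car3 at 0.24 on RMA values. Red blood cell genes gave 0 of 5.

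Surface epithelium differed among the high pools. Keratin 5, Krt5, a gene of basal epithelial cells, measured 12.41 and 11.79 in the AKR/J pools, 12.82 and 13.23 in the high RD7 pools, 12.62 in the high CAST/EiJ pool and 6.03 in the high NOD.NON-H2-nb1 pool. The low pools measured 5.93, 6.76 and 9.24 (lowest, median and highest), with the highest in CAST/EiJ replicate 3. So 5 of the 6 high pools lay above every low pool, and the high NOD.NON-H2-nb1 pool lay within the range of the low pools. Krt15 was the same in kind, at 13.01 to 14.33 in 5 high pools, 7.66 in the high NOD.NON-H2-nb1 pool and 6.84 to 11.31 in the low pools. The list's median difference was 2.99 within CAST/EiJ and 4.36 within RD7, but -0.31 within NOD.NON-H2-nb1, and the strain difference was not tested. CAST/EiJ and NOD.NON-H2-nb1 each had 1 high pool, so strain and single pool cannot be told apart here. By the rule, which asks for no overlap in each strain, 1 of 22 genes was higher, the desmosome gene Pkp1 (2.80 ± 0.73), and 1 lower, Lor (-1.23 ± 0.44), a cornified envelope gene that measured 6.56 to 8.25 in the high pools and 7.34 to 9.39 in the low pools and differed by 0.10 on RMA values. The corneal keratin Krt12, outside the list and named after its values were seen, measured 12.47 and 12.29 in AKR/J, 12.41 and 8.77 in the high RD7 pools, 10.97 in the high CAST/EiJ pool and 7.26 in the high NOD.NON-H2-nb1 pool, against 6.09 to 8.24 in the low pools.

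**Figure D3:**
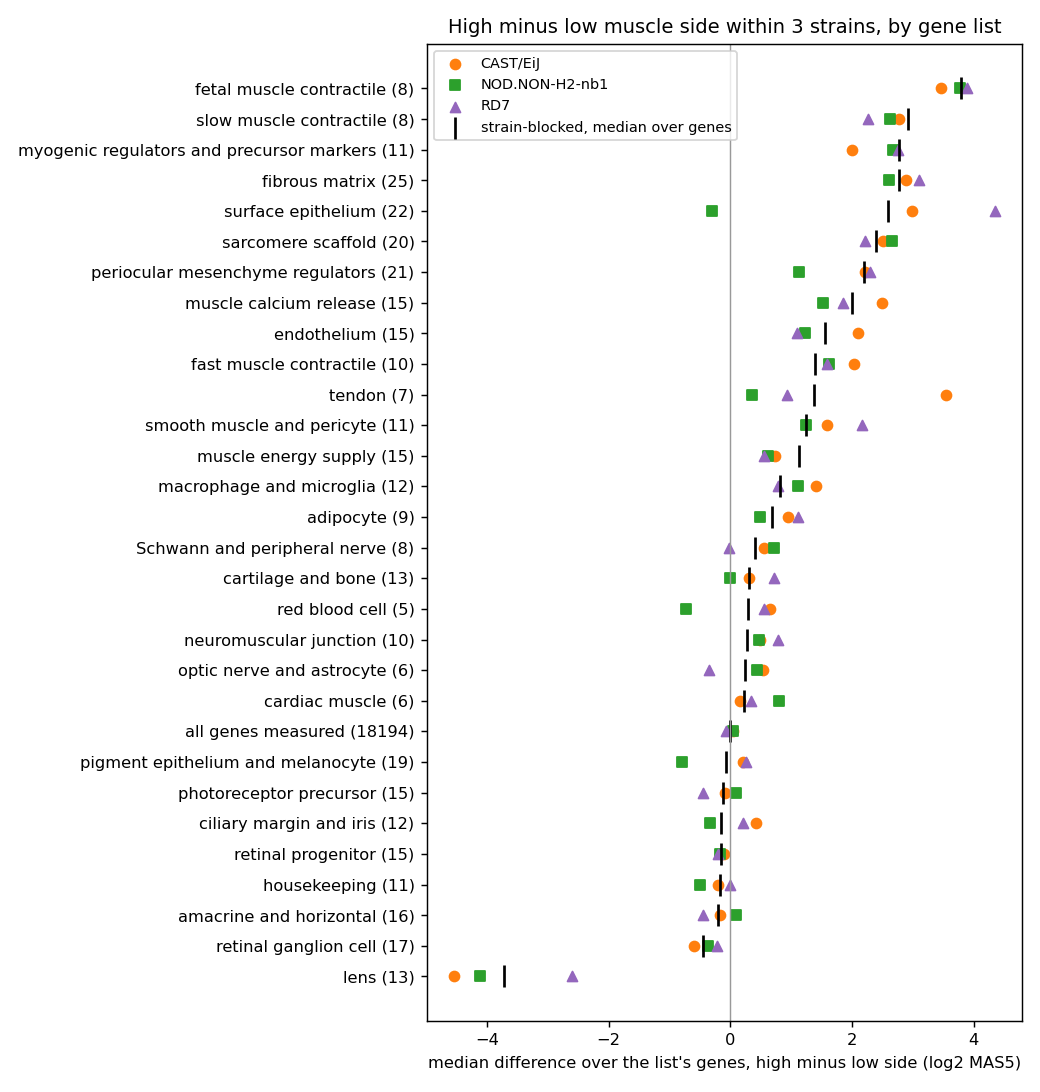
Median over each list's genes of the high minus low difference in log2 MAS5 signal, within each of the 3 strains with both sides (symbols) and from the strain-blocked fit (bars), with the number of measured genes in brackets. Muscle and matrix lists lie right of 0 in all 3 strains and the lens list left of it, whereas surface epithelium lies at -0.31 in NOD.NON-H2-nb1.

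The lens list was the only list with more genes lower than higher, and its direction held inside strains only. Of 13 lens genes 11 were lower, and the median difference was -4.11 within NOD.NON-H2-nb1, -4.54 within CAST/EiJ and -2.61 within RD7. The family of crystallins, taken after its values were seen, made up 12 of the 31 lower genes, out of 17 crystallin genes measured. The fiber crystallin Crygb had the most negative difference at -5.51 ± 1.79, and Crygd differed by -4.94 ± 1.94 and the lens filament gene Bfsp1 by -4.62 ± 1.65. Alpha crystallin Cryaa measured 9.68 in the high CAST/EiJ pool against 14.44 and 12.92 in the low ones, 2.89 in the high NOD.NON-H2-nb1 pool against 6.44 and 12.35, and 10.72 and 13.73 in the high RD7 pools against 14.41. Across all strains the sides overlapped, since the AKR/J pools, high in muscle, measured 14.25 and 10.81, and the C57BL6/J pools, low in muscle, measured 1.77, 10.44 and 4.40. Without the strain block Cryaa differed by 0.70 and the list median was 0.04. The lens genes share a tissue and moved together from pool to pool. The lens level spanned 3.79 to 11.97 over the high pools and 3.24 to 13.07 over the low pools.

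**Figure D4:**
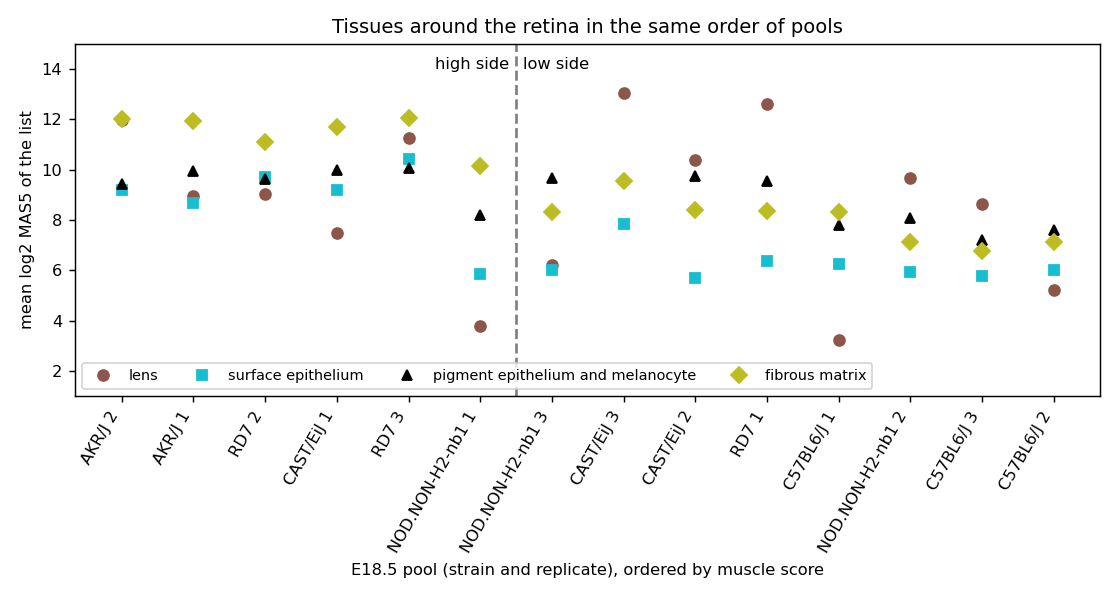
Mean log2 MAS5 signal of 4 lists in each E18.5 pool, ordered by muscle score, to be compared along the pools within a list and not between lists. Matrix levels are 10.15 to 12.05 left of the dashed line and 6.78 to 9.55 right of it, while lens levels run from 3.79 to 11.97 and from 3.24 to 13.07.

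Pigmented tissue, which lies directly on the retina, varied between E18.5 pools, both between strains and within NOD.NON-H2-nb1. None of 19 genes of pigment epithelium and melanocytes was counted, and their median difference was -0.07 with strain as a block, but 0.94 without it, and the list level differed by 0.70, 0.77 and 0.68 within the 3 dates in the sample titles that held both sides. Dopachrome tautomerase, Dct, of melanin synthesis measured 11.28 to 14.14 in the high pools and 9.69 to 13.70 in the low pools, a difference of -0.21 ± 0.53, and tyrosinase, Tyr, differed by -0.13 ± 0.63. The pigment level was lowest in all 3 C57BL6/J pools, at 7.82, 7.60 and 7.22, and in NOD.NON-H2-nb1 replicates 1 and 2, at 8.19 and 8.09, and it was 9.42 to 10.05 in the other 9 pools of either side. Rpe65, of the visual cycle, missed the level filter, with 1.86 to 3.48 in the high pools and 1.22 to 3.53 in the low pools. The 12 genes of the ciliary margin gave no counted gene and a median of -0.15.

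None of the genes in the retinal lists was counted. Over 4 lists of progenitor, ganglion, amacrine and horizontal cell, and photoreceptor precursor genes, 0 of 63 were higher or lower, 12 had a positive difference and the median was -0.23. Within NOD.NON-H2-nb1 the medians of the amacrine and horizontal list and the photoreceptor precursor list were both 0.09. The median of 11 housekeeping genes was -0.16, and it turned to 0.08 after quantile normalisation. Cyclin D1, Ccnd1, of dividing progenitors measured 13.57, 13.74 and 14.32 in the high pools and 13.63, 14.14 and 14.50 in the low pools, a difference of -0.14 ± 0.11. Among ganglion cell genes, whose median was -0.45, the neuronal tubulin regulator Stmn2 was at -0.45 ± 0.17 and the neurofilament gene Nefl at -0.48 ± 0.14. Stmn2 measured 12.55 to 12.82 in the high pools and 12.79 to 13.51 in the low pools, so the sides overlapped at the edge. The amacrine and horizontal list had a median of -0.21, with Pax6 at -0.27 ± 0.13, and the photoreceptor precursor list -0.12, with Neurod1 at -0.32 ± 0.15 and Crx at -0.05 ± 0.27.

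The sample labels carry 4 dates whose meaning is not given, and 3 of the dates held both high and low pools. The mean level of the 8 muscle lists differed by 2.61, 2.21 and 2.21 within those dates, and that of the matrix list by 3.32, 3.69 and 2.94. The lens level differed by 3.46 within 1 date and was lower on the high side within the other 2, with -1.18 as the lowest value. Surface epithelium differed by 3.88, 3.18 and 1.59. Median MAS5 signals were 91.9 to 127.0 over the 14 arrays. Arrays of different strain and side correlated at 0.866 to 0.926 over all probe sets, and those of the same strain on different sides at 0.903 to 0.934.

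The labelled comparison of strains at E18.5 used the same arrays as the score, so its muscle counts are a description and no support for the sides. Each strain was set against C57BL6/J, whose 3 pools were all low, with limma on the deposited RMA values over all 29 arrays, and a list gene passed at an adjusted p under 0.05 (Benjamini-Hochberg within a contrast). The 4 contrasts share the C57BL6/J pools. In AKR/J, with both pools high, 51 of 73 muscle genes were higher and 0 lower, against 11.7% higher and 6.88% lower of all genes. In RD7, with 2 of 3 pools high, it was 24 and 0, against 6.8% and 0.891%. In CAST/EiJ, with 1 of 3 high, it was 13 and 2, against 16.2% and 9.02%. Its share of higher genes was near that of all genes, and its share of lower genes was under it. In NOD.NON-H2-nb1, also with 1 of 3 high, it was 3 and 1, against 1.77% and 2.37%, namely Myh7, Trim63 and Myod1 higher and Lrp4 lower. Matrix genes passed as higher in 15 of 18 cases in AKR/J, 11 in RD7, 0 in NOD.NON-H2-nb1 and 5 in CAST/EiJ. Ckm, which helped set the score and is given with no test, differed from C57BL6/J by 5.44 ± 0.97 log2 RMA units in AKR/J, 3.55 ± 0.87 in RD7, 2.00 ± 0.87 in NOD.NON-H2-nb1 and 2.21 ± 0.87 in CAST/EiJ. Endothelial genes passed as higher in 12 of 13 cases in AKR/J, 5 in RD7, 0 in NOD.NON-H2-nb1 and 5 in CAST/EiJ.

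At the stricter setting of 2-fold with an adjusted p under 0.001, probe sets called higher and lower at E18.5 numbered 684 (2.69%) and 430 (1.69%) in AKR/J, 692 (2.72%) and 1302 (5.12%) in CAST/EiJ, while NOD.NON-H2-nb1 had 111 (0.436%) and 303 (1.19%). At P30.5 they numbered 131 (0.515%) and 298 (1.17%) in AKR/J, 60 (0.236%) and 24 (0.0943%) in RD7, and 619 (2.43%) and 1093 (4.3%) in CAST/EiJ, while NOD.NON-H2-nb1 had 157 (0.617%) and 261 (1.03%).

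In RD7 the E18.5 calls depended on single pools. The contrast called 75 probe sets, 66 higher (0.259%) and 9 lower (0.0354%). Without replicate 1, its only low pool, it called 742, and 47 of 73 muscle genes and 16 of 18 matrix genes were higher. Without replicate 2 it called 34 and without replicate 3 it called 3, with 8 and 4 muscle genes higher. Leaving out C57BL6/J replicate 1, 2 or 3 left 9, 5 and 3 calls. With the E18.5 arrays alone in the fit RD7 had 4 calls and 3 muscle genes higher, and AKR/J had 313 calls and 39. AKR/J had 39 muscle genes higher without replicate 1 and 37 without replicate 2. Its calls numbered 1114 in all, 382 without replicate 1, 307 without replicate 2, and 714, 659 and 596 without C57BL6/J replicate 1, 2 or 3. Endothelial genes higher in AKR/J numbered 5 without replicate 2. Without its only high pool CAST/EiJ had 6 muscle genes higher and 1 lower, and NOD.NON-H2-nb1 had 0 higher without its own.

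Pigment genes gave another order. The RMA values held 10 of the 19 pigment genes measured. Of the 10, 8 were higher than in C57BL6/J in AKR/J, 8 in RD7, 3 in NOD.NON-H2-nb1 and 9 in CAST/EiJ. Of all genes 11.7%, 6.8%, 1.77% and 16.2% were higher in these strains, in the same order, and 2 of these strains had 1 high pool of 3. Tyr was higher in AKR/J by 3.65 ± 0.56 (adjusted p = 6.18e-05 by limma), in CAST/EiJ by 2.32 ± 0.50 (adjusted p = 0.00105) and in RD7 by 2.91 ± 0.50 (adjusted p = 0.00139). Without the high CAST/EiJ pool the CAST/EiJ count was 9, and without RD7 replicate 1, 2 or 3 the RD7 count was 8, 8 and 7. In NOD.NON-H2-nb1 it was 0 without replicate 3, the pool with the high pigment level.

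At P30.5, in arrays the score did not use, muscle genes differed little between strains. The muscle score genes had a mean level of 3.14 to 5.57 over the 15 P30.5 arrays, against 10.07 to 11.18 in the high E18.5 pools and 3.60 to 7.18 in the low ones. The 8 muscle lists were at 5.68 to 6.54 at P30.5, and the matrix list at 6.94 to 8.34. Against C57BL6/J at P30.5, 0 of 73 muscle genes were higher in AKR/J, 1 in NOD.NON-H2-nb1, 3 in CAST/EiJ and 1 in RD7, and 0 were lower in each. Of all genes 3.42% were higher and 2.22% lower in AKR/J, 0.802% and 0.453% in RD7, and 15.3% and 7.94% in CAST/EiJ, while NOD.NON-H2-nb1 had 3.11% and 2.22%. The muscle genes were Chrnb1 in NOD.NON-H2-nb1, Cacna1s, Chrnb1 and Lrp4 in CAST/EiJ and Srl in RD7. At an unadjusted p under 0.05, 2 muscle genes were higher in AKR/J and 0 lower, and limma on log2 MAS5 again passed 0 in AKR/J. By limma 0 of the 5 score genes, 0 of 18 matrix genes and 0 of 16 periocular genes passed in any strain on RMA or on log2 MAS5 values, and at an unadjusted p under 0.05 the only one on RMA values was 1 matrix gene, in CAST/EiJ. Ckm differed from C57BL6/J by -0.23 ± 0.87 in AKR/J (adjusted p = 0.942 by limma) and by 0.18 ± 0.87 in RD7 (adjusted p = 0.995 by limma). These SEs are wide because the fit shares 1 spread per gene over both ages, and the E18.5 pools of a strain spread widely for Ckm. With the P30.5 arrays alone in the fit, higher and lower muscle genes numbered 0 and 1 in AKR/J, 1 and 0 in RD7, 1 and 1 in NOD.NON-H2-nb1 and 5 and 2 in CAST/EiJ. Matrix genes then numbered 1 higher in AKR/J, 2 in NOD.NON-H2-nb1, 0 in RD7 and 2 in CAST/EiJ, with 1 lower in CAST/EiJ. The difference between ages was not tested.

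**Figure D5:**
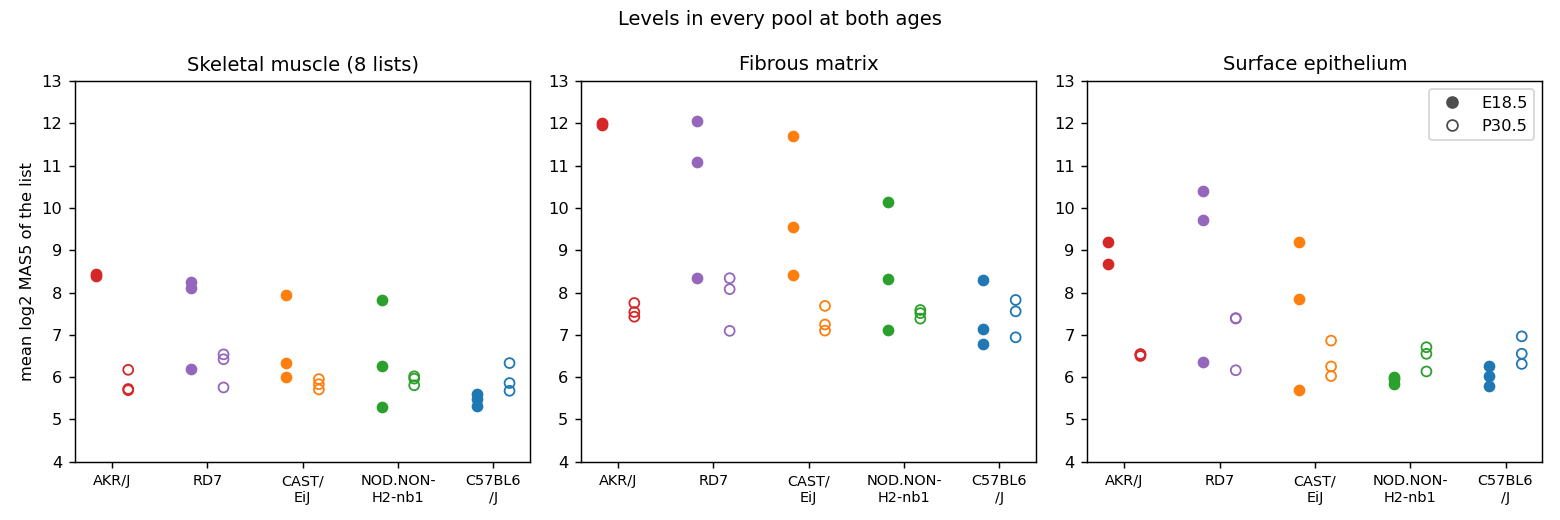
Mean log2 MAS5 signal of the muscle, matrix and surface epithelium lists in each pool, with E18.5 (filled) left of P30.5 (open) in every strain. Muscle levels at E18.5 reach 8.44 in AKR/J, while all 15 P30.5 pools lie between 5.68 and 6.54.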

How the data were processed

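Retina RNA pools were hybridised to Affymetrix arrays, 1 array per pool. The authors deposited probe set intensities as MAS5 signals of 45101 probe sets, with scaling not given in the sources used here, and log2 RMA values of 25444 of them, chosen by a rule that is not given either. The labels name another array model than the probe sets fit. Here log2 MAS5 signal, with no pseudocount, was reduced to the probe set with the highest mean per gene. Gene symbols came from the platform annotation, with 34958 probe sets carrying 1 symbol, 932 several and 9211 none. Differences between sides were fitted with limma 3.58.1 (R 4.3.3) and strain as a block, and no p-value was taken because the sides came from the same arrays. Strains were compared with C57BL6/J by limma on RMA values over 10 groups (Benjamini-Hochberg). Pools are the replicates, so p-values measure the spread between pools only. The members and gene lists were chosen with earlier results of these data known. The text names the 5 score genes, the 2 highest and 2 most different genes of each list, the 15 most different in each direction over all genes, and further list members chosen after their values were seen. The fits recovered shifts set in simulated data. Alternatives were RMA values, other level filters, a pseudocount of 32, other scalings, other blocks and leaving out each pool. The number of arrays limits the precision.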

Additional observations from a re-analysis of the deposited data

Results flagged for a closer look

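Among groups of 4 to 10 pools, 62 were examined for a pool far from the others in the mean log2 MAS5 level of a list. Of these 4 had one. The groups share the same pools and are not independent, and whether chance gives as many was not tested. NOD.NON-H2-nb1 replicate 1 lay far below the other 5 high pools in smooth muscle and pericyte genes (7.712), in pigment epithelium and melanocyte genes (8.192) and in ciliary margin and iris genes (8.307). CAST/EiJ replicate 3 lay far above the other 7 low pools in surface epithelium genes (7.836).

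In 6 lists the high minus low difference of the list level ran one way in 1 strain and the other way in another, with no overlap of pools, and these strain differences were not tested. Each strain had 1 pool on one side and 2 on the other, so a lack of overlap carries little weight. Surface epithelium differed by -0.131 in NOD.NON-H2-nb1, 2.44 in CAST/EiJ and 3.69 in RD7. Ciliary margin and iris genes differed by -0.633 in NOD.NON-H2-nb1, 0.512 in CAST/EiJ and 0.275 in RD7. Red blood cell genes differed by -0.868 in NOD.NON-H2-nb1, 0.487 in CAST/EiJ and -0.584 in RD7. Optic nerve and astrocyte genes differed by 0.712 in NOD.NON-H2-nb1, 0.488 in CAST/EiJ and -0.417 in RD7. Amacrine and horizontal cell genes differed by 0.048 in NOD.NON-H2-nb1, -0.135 in CAST/EiJ and -0.435 in RD7. Housekeeping genes differed by -0.34 in NOD.NON-H2-nb1 and 0.065 in RD7.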

How the results depend on the processing

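The counts of 426 higher and 31 lower genes became 255 and 4 on RMA values, which hold 355 and 8 of these genes. They became 708 and 232 with no level filter, 154 and 17 with a mean of at least 8, 168 and 20 with a difference of at least 2, and 270 and 1 with no block. As the median over probe sets 49 genes were lower. Leaving out 1 pool gave 374 to 667 higher and 31 to 63 lower genes, with 667 without NOD.NON-H2-nb1 replicate 1 and 63 without RD7 replicate 1. Those pools, and CAST/EiJ replicate 1 (405 and 41), were the only pools of their strain on a side. Leaving one out takes its strain out of the no-overlap rule, which then asks for less. AKR/J and C57BL6/J have 1 side only. Leaving out a pool of theirs could not change the counts, which stayed at 426 and 31. Of the 426 and 31 genes, 233 and 2 were also counted on RMA values, 250 and 1 with no block, and 410 and 31 with the title date added to strain as a replicate block, where 425 and 31 genes were counted in all. Median-centring moved the median of all genes by -0.158.

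Without the strain block the lens list median turned to 0.04372, and Crybb1 (0.8169), Cryba1 (0.6115), Crygd (0.02181), Cryaa (0.6977), Cryba4 (0.4789), Cryba2 (0.1875), Cryga (0.6143), Mip (0.04372), Crygs (0.5042) and Crybb3 (0.8497) turned with it. Lor turned to 0.09865 on RMA values and Acta2 to -0.2843 as the median over probe sets. The causes were not tested. Apart from leaving out pools, 189 list medians moved by less than the spread between pools, 45 by more, and 1 turned.

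Against C57BL6/J at E18.5, limma on log2 MAS5 called 427 probe sets in AKR/J, 243 in NOD.NON-H2-nb1 and 9 in RD7. With the title date as a replicate block RD7 had 5, and with E18.5 arrays alone AKR/J had 313, NOD.NON-H2-nb1 272 and RD7 4. At P30.5 log2 MAS5 gave 269 in AKR/J, 255 in NOD.NON-H2-nb1 and 47 in RD7. Leaving out 1 pool gave at E18.5 307 to 714 in AKR/J, 306 to 345 in NOD.NON-H2-nb1, 1561 to 1939 in CAST/EiJ and 3 to 742 in RD7, and at P30.5 321 to 469 in AKR/J, 339 to 396 in NOD.NON-H2-nb1, 1414 to 1655 in CAST/EiJ and 57 to 71 in RD7.

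The labels give no replicate numbers, and the numbers used here follow accession order, so they pair no samples. The date in the sample titles, whose meaning is not given, stood for the replicate block. Deviations from strain means of pools of different strains correlated by 0.114 on average over 23 pairs of the same date and by -0.048 over 55 pairs of other dates.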

Other observations

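Further gene groups with counted members were taken after their values were seen, and are given as values only. Beside every count in this section stand the shares of all genes measured, 2.34% higher and 0.17% lower. Of 7 measured genes of caveolae, the membrane pits of muscle, fat and vessel cells, 5 were higher, with a median difference of 1.98. Caveolin 1, Cav1, measured 10.39 to 12.33 in the high pools and 6.84 to 10.34 in the low pools, a difference of 2.80 ± 0.49, and the sides did not overlap. Of 42 collagen genes 16 were higher and 0 lower, and of 11 annexin genes 5 were higher. Of 48 keratin genes 2 were higher, of 10 laminin genes 3, of 11 myosin heavy chain genes 3 and of 7 IGF binding genes 3.

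Of 8 mast cell protease genes 2 were higher, Cpa3 by 2.97 ± 0.83 and Cma1 by 2.29 ± 0.45. The other 6 missed the level filter, with differences from -0.61 (Mcpt4) to 0.51 (Mcpt8), and the median of the 8 was 0.17. Cpa3 measured 7.91 to 10.15 in the high pools and 4.55 to 8.50 in the low pools, where C57BL6/J replicate 1 alone reached into the high range. The growth factors Igf2 (1.90 ± 0.35) and Igf1 (1.06 ± 0.28) and the fetal mesenchyme gene Dlk1 (3.73 ± 0.73) were higher. Igf2 measured 12.97 to 14.10 in the high pools and 9.98 to 12.06 in the low pools, with no overlap.

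Of 11 immediate early genes 3 were higher, Fos (1.69 ± 0.47), Egr1 (1.46 ± 0.32) and Fosl2 (2.48 ± 0.45), and the median was 0.36. Jun was at -0.09 ± 0.14, and 6 genes missed the level filter, with differences from -0.47 (Egr4) to 0.91 (Fosl1). Fos measured 8.89 to 9.69 in 5 high pools, 7.77 in the high NOD.NON-H2-nb1 pool and 6.14 to 7.81 in the low pools. The high NOD.NON-H2-nb1 pool, which also had low keratin levels, lay within the low range for Fos.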
